A study of Mus musculus with 15 samples.

Results

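Serum amyloid A proteins and a small set of other proteins take part in the defence of the colon surface, some made at rest and some induced by microbes or inflammation, and 10 of their genes are described here in mice fed heme. They are the serum amyloid genes Saa1, Saa2 and Saa3, the antibacterial lectins Reg3b and Reg3g, the immunoglobulin receptor Pigr, the cytokines Il18 and Il33, lipocalin 2 (Lcn2) and the inducible nitric oxide synthase Nos2. Members were taken by symbol, as all probe sets whose array annotation gives 1 gene symbol equal to one of these names. All 10 genes were found, of 18194 genes with such a probe set, through 13 probe sets, and 0 further probe sets named a member together with another gene. A probe set is a group of short DNA probes on the array that reports on 1 transcript.

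The heme group was 9 male C57BL/6 mice on a high-fat, low-calcium diet with added heme at 0.5 umol per g, and the control group was 6 male C57BL/6 mice on the same diet without heme. Both groups were 11 weeks of age by the label, took 40% of dietary energy as fat and ate their diet for 14 days. Heme, an iron porphyrin, is what colours red meat. RNA came from scrapings of the opened and washed colon, with 1 Affymetrix array per mouse and no pooling, so replicates are animals. Control mouse 5 was not analysed here. The mice are of 1 inbred strain and 1 sex, and the scraping is a mixed tissue, in which fewer cells of a type and less RNA per cell cannot be told apart.

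Serum amyloid A is known as a family of small lipoprotein-bound and retinol-binding proteins. The liver releases it in the acute-phase response, and the epithelium of the intestine makes it locally when microbes are present. In mouse intestine Reg3 lectins and Saa genes are both switched on by interleukin 22 and by signals through toll-like receptors, with NF-kB, STAT3 and C/EBP factors acting at their promoters. Pigr carries polymeric IgA across the epithelium into the lumen, Il18 and Il33 are interleukin 1 family cytokines kept ready in tissue cells, Lcn2 withholds iron from bacteria by binding their siderophores, and Nos2 makes nitric oxide in inflamed tissue.

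The 250 bases before the start of the Saa1, Saa2 and Saa3 genes are shown. The probe sets that represent Saa1 and Saa2 moved almost as 1 across mice, and that of Saa3 did not. Those of Saa1 and Saa2 cite the same transcript record, and the part of shared probe targets in their likeness was not tested. The 250 bases before Reg3b and Reg3g are shown as the other pair that moved together. All are from RefSeq on build GRCm38.p6, read 5′ to 3′ along the gene. They lie at chr7:46742981-46743230 (minus strand) for Saa1, chr7:46751583-46751832 (plus strand) for Saa2, chr7:46715677-46715926 (minus strand) for Saa3, chr6:78370635-78370884 (plus strand) for Reg3b and chr6:78468875-78469124 (minus strand) for Reg3g. Capitals mark matches to short motif cores searched on both strands, TTNNGCAA for C/EBP, GGG and CC with any 5 bases between them for NF-kB, and TTCNNNGAA for STAT factors.
Saa1: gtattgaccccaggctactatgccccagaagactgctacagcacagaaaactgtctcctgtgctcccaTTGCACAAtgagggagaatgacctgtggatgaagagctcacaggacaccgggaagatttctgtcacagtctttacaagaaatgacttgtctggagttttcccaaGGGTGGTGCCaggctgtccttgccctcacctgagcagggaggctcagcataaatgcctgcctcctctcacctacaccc
Saa2: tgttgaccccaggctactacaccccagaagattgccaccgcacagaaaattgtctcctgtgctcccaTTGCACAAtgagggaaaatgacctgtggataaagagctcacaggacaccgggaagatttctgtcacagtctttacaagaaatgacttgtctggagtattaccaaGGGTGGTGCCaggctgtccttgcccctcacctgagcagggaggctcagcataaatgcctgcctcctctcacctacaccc
Saa3: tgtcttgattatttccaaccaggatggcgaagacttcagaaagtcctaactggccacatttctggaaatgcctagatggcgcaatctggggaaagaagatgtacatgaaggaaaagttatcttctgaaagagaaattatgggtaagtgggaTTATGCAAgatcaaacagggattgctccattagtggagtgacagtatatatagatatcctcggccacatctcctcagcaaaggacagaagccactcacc
Reg3b: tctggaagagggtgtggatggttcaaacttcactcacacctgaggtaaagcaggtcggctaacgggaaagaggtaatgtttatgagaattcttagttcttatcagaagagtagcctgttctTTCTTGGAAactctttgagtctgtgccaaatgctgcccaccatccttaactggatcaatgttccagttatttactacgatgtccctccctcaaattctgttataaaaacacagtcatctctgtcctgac
Reg3g: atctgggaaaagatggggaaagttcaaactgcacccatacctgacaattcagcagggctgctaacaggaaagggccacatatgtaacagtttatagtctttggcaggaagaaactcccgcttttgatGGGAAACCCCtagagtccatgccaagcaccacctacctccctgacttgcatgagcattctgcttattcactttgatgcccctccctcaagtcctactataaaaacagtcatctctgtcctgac

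Aligned end to end, the Saa1 and Saa2 windows were identical at 238 of 251 aligned positions, 94.8%. Saa3 shared 52.2% with Saa1 and 52.4% with Saa2, no more than the 52.4% and 52.2% it shared with the unrelated Reg3b and Reg3g windows. Reg3b and Reg3g shared 68.9%. The C/EBP core was found in Saa1, Saa2 and Saa3 and in 9.57% of 32841 RefSeq promoter windows of this length. The STAT core was found in Reg3b and in 7.02% of windows. The NF-kB core is loose, matched Saa1, Saa2 and Reg3g, and occurs in 45.8% of windows. In Reg3g the letters match on both strands at the same place, and no matches of different motifs overlapped. These are matches of letters and say nothing of binding. On chromosome 7 no protein-coding gene lies between Saa1 and Saa2 in RefSeq, and 1, Saa4, lies between them and Saa3. On chromosome 6, 4 related genes (Reg3d, Reg3a, Reg2 and Reg1) lie between Reg3b and Reg3g.

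The arrays report log2 expression, so a difference of 1 is a doubling of signal, and 4.32 (a signal of 20) was taken as a floor below which a gene is not told apart from background. Of the 10 genes, 7 lay over the floor on all 15 arrays and were tested among 9257 genes, and Il33, Lcn2 and Nos2 lay under it on all 15. With 0.05 as the limit on the limma p, adjusted over all tested genes by Benjamini-Hochberg, 4 of the 7 were lower in heme mice and 0 were higher. Of all tested genes 53.6% passed, 26.4% lower and 27.2% higher. For those 4, all heme mice lay below all controls, which held for 8.93% of tested genes. The median difference, heme minus control, was -0.37 over the 7 and -0.01 over all tested genes. Over the 13 probe sets, 6 of the 10 tested were lower, and 0 were higher, beside 24.3% lower and 26.1% higher (50.4% in all) of the 15717 tested probe sets.

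**Figure D1:**
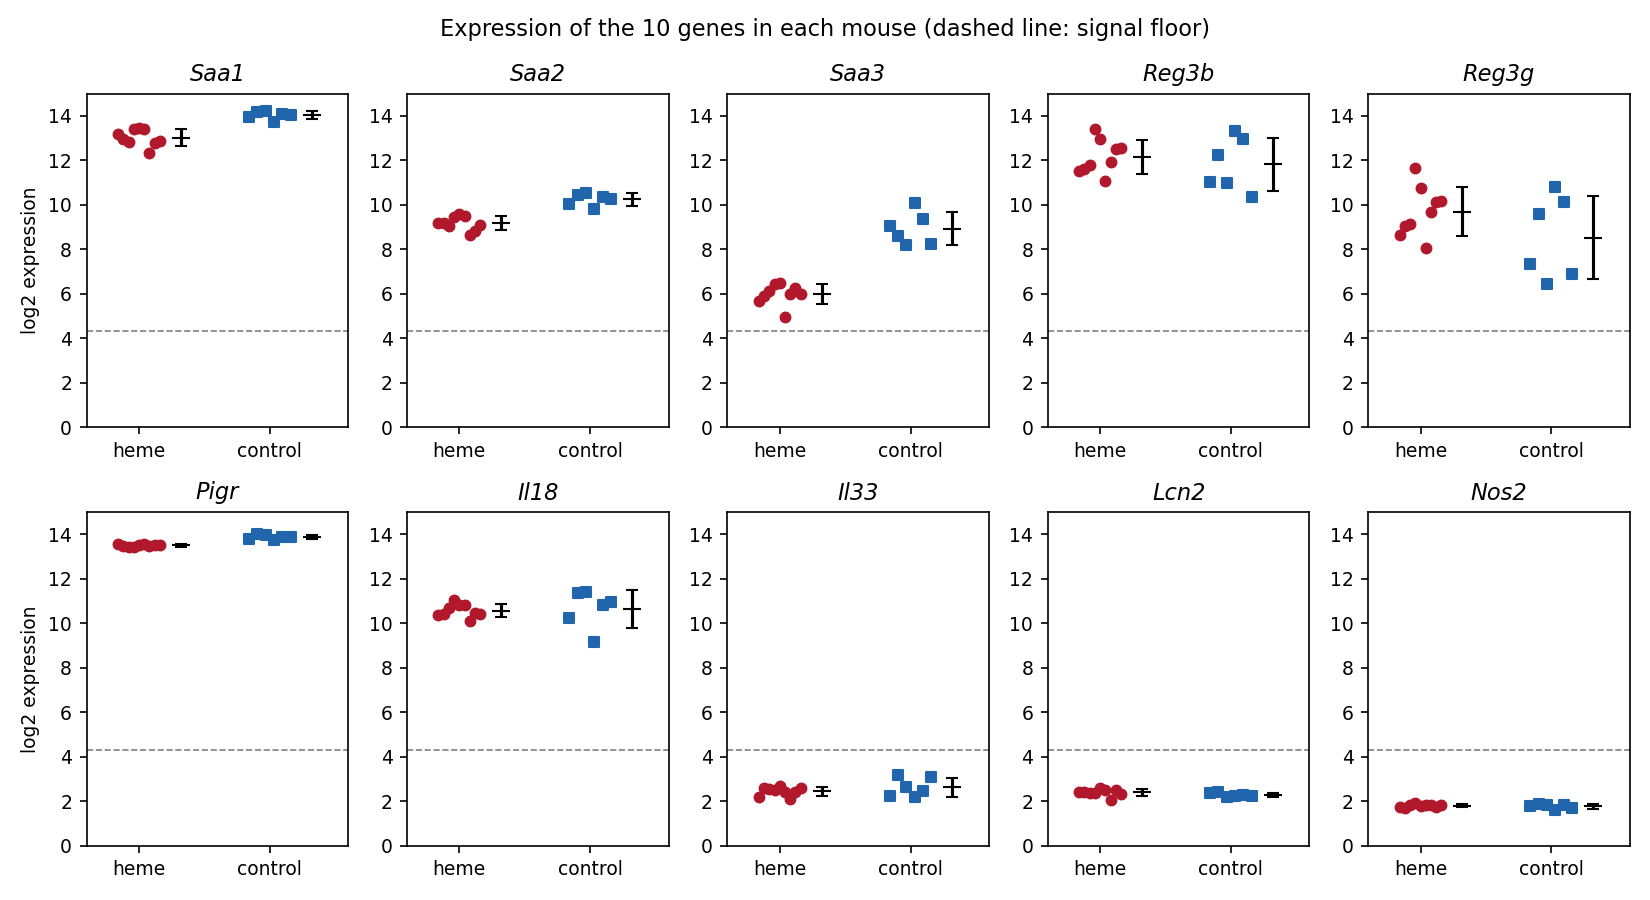
Log2 expression of the 10 genes (vertical axis) in each of 9 heme mice (red circles) and 6 control mice (blue squares), with the group mean and SD as a black bar and the signal floor of 4.32 as a dashed line. Saa1, Saa2, Saa3 and Pigr separate the groups, Reg3b, Reg3g and Il18 overlap, and Il33, Lcn2 and Nos2 lie under the floor in every mouse.

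Saa3 showed the largest difference of the 10 genes. In mouse it is a serum amyloid made outside the liver, by epithelium, macrophages and fat. Its log2 level was 4.95 at the lowest, 5.99 at the median and 6.47 at the highest in heme mice, against 8.21, 8.82 and 10.09 in control mice. The groups did not overlap. The difference was -2.94 ± 0.28 (SE, adjusted p = 8.09e-07, limma), which is 7.68-fold lower in heme mice. Of the 9257 tested genes 8 had a lower difference.

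Saa1 and Saa2, the acute-phase serum amyloids, fell by less. Saa1 stood at 12.33, 12.95 and 13.45 (lowest, median and highest) in heme mice and at 13.73, 14.07 and 14.20 in control mice. Saa2 stood at 8.64, 9.17 and 9.59 in heme mice and at 9.80, 10.30 and 10.54 in control mice. In both genes every heme mouse was below every control. The differences were -1.02 ± 0.15 (SE, adjusted p = 6.24e-05, limma) for Saa1 and -1.07 ± 0.15 (adjusted p = 2.69e-05) for Saa2, 2.02-fold and 2.11-fold lower in heme mice. The Saa1 values lie near the top of the scale, where the highest value on any array was between 14.63 and 14.80, and whether this narrowed the difference was not tested. Saa4, the remaining family member, was under the floor on all arrays.

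The labels of the Saa1 and Saa2 probe sets are not fully separate. The probe set that represents Saa1 (1419075_s_at) and the one for Saa2 (1449326_x_at) cite the same transcript record, which RefSeq now gives to Saa2, and the suffixes _s_at and _x_at mark probes that can bind more than 1 related transcript. A further Saa1 probe set (1450788_at), whose record RefSeq gives to Saa1, had 12.67 ± 0.32 in heme mice (SD, n = 9) and 13.53 ± 0.16 in control mice (n = 6). Its difference was -0.86 ± 0.14 (SE, adjusted p = 9.74e-05, limma over probe sets), again with no overlap. How far each probe set reads Saa1, Saa2 or both was not tested.

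The fall of Saa3 exceeded that of its relatives within the same arrays. The Saa3 minus Saa1 difference was -7.04 ± 0.63 in heme mice (SD, n = 9) and -5.11 ± 0.88 in control mice (n = 6), a shift of -1.93. The Saa3 minus Saa2 difference was -3.18 ± 0.59 in heme mice and -1.32 ± 0.96 in control mice, a shift of -1.87. Each gave p = 0.0002 in an exact two-sided permutation test over 5005 splits, the smallest p these can give, and 4e-04 adjusted over the 4 pairs of relatives compared. Saa2 minus Saa1 was -3.86 ± 0.10 in heme mice and -3.80 ± 0.11 in control mice (exact permutation p = 0.304, adjusted 0.304). With each gene taken as the average over its probe sets that last shift was -0.14 and passed (adjusted exact permutation p = 0.019), since the further Saa1 probe set then enters the Saa1 value.

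**Figure D2:**
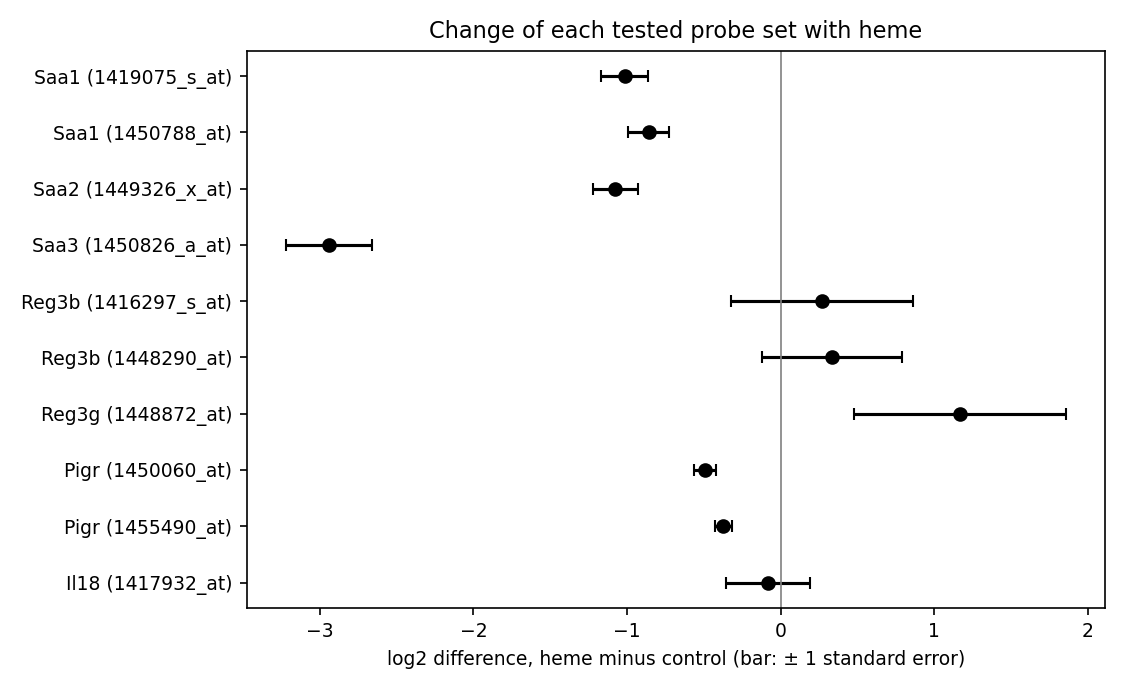
Log2 difference, heme minus control (horizontal axis), of the 10 tested probe sets of the 7 genes over the floor, with bars of 1 SE. Saa3 lies at -2.94, the Saa1 and Saa2 probe sets between -0.86 and -1.07 and the Pigr probe sets at -0.49 and -0.37, while the bars of Reg3b and Il18 cross 0. Reg3g lies at 1.17 with a bar that stays above 0, but it was not called.

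Across mice the probe sets that represent Saa1 and Saa2 varied together within each diet. Their rank order was the same in the 9 heme mice (Pearson r = 0.971, exact permutation p = 2.76e-06, Spearman rho = 1, exact p = 5.51e-06) and in the 6 control mice (r = 0.981, exact p = 0.00139, rho = 1, exact p = 0.00278). Adjusted over the 8 relations computed, the Pearson p was 1.1e-05 in heme mice and 0.0037 in control mice. Without the 2 mice farthest from the median r was 0.945 in heme mice and 0.979 in control mice. Heme mice 4, 5 and 6 were the highest of their group for both genes and heme mouse 7 the lowest. The part of shared probe targets in this likeness was not tested, and the further Saa1 probe set was not used here.

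Saa3 showed no such relation with either gene. With Saa1 its r was -0.13 in heme mice (exact permutation p = 0.735, rho = 0.00, exact p = 1, adjusted p = 0.751 and 1) and -0.82 in control mice (exact p = 0.0403, rho = -0.71, exact p = 0.136, adjusted p = 0.0644 and 0.181). Without the 2 mice farthest from the median the control value was -0.21, so it rested on those mice, and the heme value was -0.46. With Saa2 the values were -0.13 in heme mice (exact p = 0.751, rho = 0.00, exact p = 1) and -0.75 in control mice (exact p = 0.0819, rho = -0.71, exact p = 0.136). Without the 2 farthest mice these were -0.50 and -0.13, and adjusted over the 8 relations the Pearson p was 0.751 in heme mice and 0.109 in control mice.

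Reg3b and Reg3g are C-type lectins of the gut epithelium that bind bacterial surfaces, Reg3g those of Gram-positive species in mouse. Reg3b stood at 11.09, 11.91 and 13.42 (lowest, median and highest) in heme mice and at 10.33, 11.63 and 13.32 in control mice. Reg3g stood at 8.04, 9.67 and 11.66 in heme mice and at 6.43, 8.47 and 10.78 in control mice. For both genes the groups overlapped widely, and only heme mouse 4 was above all controls. The difference was 0.33 ± 0.46 (SE, adjusted p = 0.563, limma) for Reg3b, with a 95% interval of -0.64 to 1.31. For Reg3g it was 1.17 ± 0.69 (adjusted p = 0.167), with an interval of -0.30 to 2.64. The other Reg3b probe set (1416297_s_at) gave 0.27 ± 0.59 (adjusted p = 0.729, limma over probe sets).

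These 2 genes were the most variable members in both diets. Control mice spanned 20.4-fold in Reg3g and 7.95-fold in Reg3b from lowest to highest, and heme mice 12.3-fold and 5.06-fold. The highest controls were control mouse 4, with Reg3g at 10.78, control mouse 6, at 10.10, and control mouse 2, at 9.60. Control mouse 4 was also the control lowest in the distal colon Hox genes, whose mean over 3 genes was 3.19 there and 6.81 to 8.94 in the other 5 controls, and 7.78 to 8.63 in heme mice. Control mouse 2 was the richest in fibroblast transcripts, at a mean of 9.57 over 7 genes against 6.06 to 7.33 in the other controls. Without control mice 2 and 4, both high in Reg3g, the Reg3g difference was 2.00 (adjusted p = 0.0245, limma). Without these and heme mouse 6 it was 2.20 (adjusted p = 0.0132, limma). The controls left out are among the highest in Reg3g, and heme mouse 6 is the lowest heme mouse. Leaving them out raises the difference by construction, so these 2 p cannot be read as a test of a rise. With all mice, or with any 1 mouse left out, the Reg3g difference did not pass. With the mean of the distal colon Hox genes as a covariate it was 1.53 and did not pass (adjusted p = 0.0676, limma). Leaving out 1 mouse gave Reg3g differences between 0.75 (without control mouse 3) and 1.62 (without control mouse 4), with adjusted p between 0.0522 and 0.376 (limma). For Reg3b they lay between 0.036 (without control mouse 7) and 0.63 (without control mouse 4), and none passed.

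Reg3b and Reg3g kept nearly the same order of mice in both diets. Pearson r was 0.99 in heme mice (exact permutation p = 2.76e-06, rho = 1, exact p = 5.51e-06) and 0.96 in control mice (exact p = 0.0125, rho = 0.943, exact p = 0.0167). Adjusted over the 8 relations the Pearson p was 1.1e-05 in heme mice and 0.025 in control mice. Without the 2 mice farthest from the median r was 0.976 in heme mice and 0.882 in control mice. The gap between them differed by diet, with Reg3b minus Reg3g at 2.45 ± 0.38 in heme mice (SD, n = 9) and 3.29 ± 0.77 in control mice (n = 6). The shift of -0.83 gave an exact two-sided permutation p of 0.0098, or 0.0131 adjusted over the 4 pairs. The ranges, 1.76 to 3.04 in heme mice and 2.54 to 4.56 in control mice, overlapped. In each diet the gap was smallest in the mouse with the highest Reg3g, heme mouse 4 and control mouse 4. It was largest in the mouse with the lowest Reg3g, heme mouse 6 and control mouse 3. The part of the Reg3g level in the shift between diets was not tested. Without control mouse 3 the shift was -0.58 (adjusted exact permutation p = 0.0433).

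The genes most like Saa3 across mice, once group means were taken away, were not the other serum amyloids. They were Tarbp2, an RNA-binding partner of Dicer (Pearson r = 0.844 over 15 arrays), Reg3b (0.838) and Reg3g (0.828). Among 9256 other tested genes Reg3b and Reg3g ranked 2 and 3, while Saa1 ranked 7650 (r = -0.30) and Saa2 ranked 8287 (-0.40). For Reg3b and Reg3g the nearest gene was the other of the pair (0.971), then the kinase Mast3 (0.849 and 0.850) and Saa3. Saa3 minus Reg3b ran from -6.98 to -5.64 in heme mice and from -3.61 to -2.01 in control mice, with no overlap, and Saa3 minus Reg3g ran from -5.22 to -2.93 in heme mice and from -0.99 to 1.78 in control mice. These likenesses were picked as the highest of many and are given as a description.

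**Figure D3:**
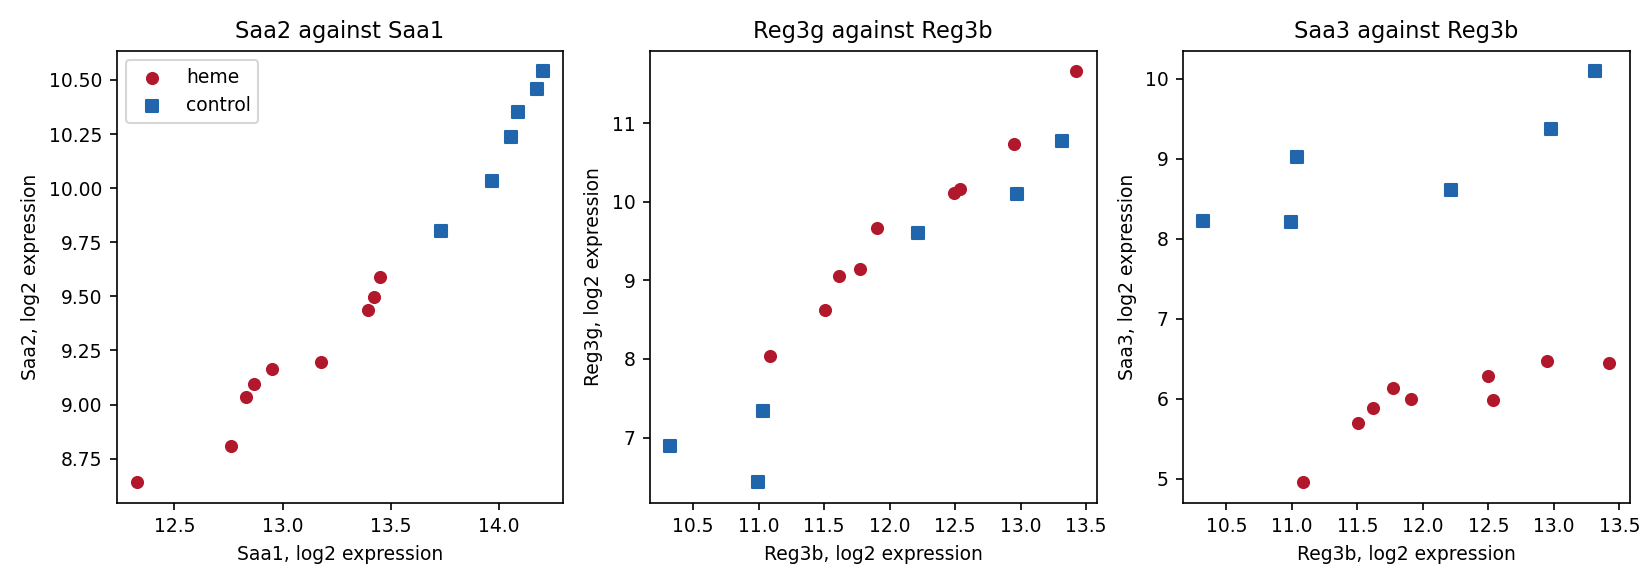
Log2 expression of Saa2 against Saa1, Reg3g against Reg3b and Saa3 against Reg3b, with 1 point per mouse (9 heme mice as red circles, 6 control mice as blue squares). Saa2 climbs with Saa1 and Reg3g with Reg3b in both diets, the mean Reg3b minus Reg3g gap being 2.45 in heme mice and 3.29 in control mice, and Saa3 lies against Reg3b in 2 separate bands, heme mice between 4.95 and 6.47 and control mice between 8.21 and 10.09.

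Of the single mice, control mouse 4 was the control with the highest Saa3 (10.09), Reg3b (13.32) and Reg3g (10.78) and with the lowest Saa1 (13.73), Saa2 (9.80), Pigr (13.74) and Il18 (9.16). Heme mouse 6 was the heme mouse with the lowest Saa3 (4.95), Reg3b (11.09) and Reg3g (8.04). That mouse had the highest mean over 10 interferon response genes, 8.69, where its 8 group mates had 6.26 to 6.84 and control mice 7.60 to 8.06.

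Pigr, the receptor that exports IgA, showed a small and uniform fall. It stood at 13.41, 13.52 and 13.58 (lowest, median and highest) in heme mice and at 13.74, 13.87 and 13.99 in control mice. The groups did not overlap although the difference was only -0.37 ± 0.05 (SE, adjusted p = 2.59e-05, limma), 1.29-fold lower in heme mice. The SD between mice was 0.06 in heme mice and 0.10 in control mice, the smallest of the tested members in each group. The other Pigr probe set (1450060_at) differed by -0.49 ± 0.07 (SE, adjusted p = 4.89e-05, limma over probe sets), also without overlap. Its signal was lower and its SD was 0.12 in heme mice and 0.13 in control mice. The first probe set lies near the top of the scale, as for Saa1, and whether this narrowed its difference and spread was not tested. The genes most like Pigr within groups were Cpe, a prohormone-processing carboxypeptidase (r = 0.849 over 15 arrays), Parp1, a DNA repair enzyme (0.844), and Bmp2, a bone morphogenetic protein (0.841).

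The immunoglobulin that Pigr carries showed no called change. The IgA heavy chain Igha was at 13.16 ± 0.35 in heme mice (SD, n = 9) and 12.91 ± 0.72 in control mice (n = 6), and the joining chain Jchain at 11.54 ± 0.45 in heme mice and 11.06 ± 1.06 in control mice (adjusted p = 0.414 and 0.269, limma). Ccl28, the chemokine that draws IgA plasma cells, differed by -0.10 ± 0.19 (SE, adjusted p = 0.678). Of 6 tested genes of IgA transport and IgA plasma cells other than Pigr, 1 was higher and 1 lower with a median of 0.15. Over all tested genes 27.2% were higher and 26.4% lower. Aldh1a1, a retinoic acid synthesis enzyme, rose by 0.97 ± 0.14 (adjusted p = 3.63e-05). Tnfsf13b, the B cell survival factor BAFF, fell by 1.33 ± 0.23 (adjusted p = 2.09e-04, limma). It stood at 3.75 ± 0.20 in heme mice, which is under the floor, against 5.08 ± 0.73 in control mice. Its highest heme value was 4.01 and its lowest control value 4.39, so it entered the test through the control mice alone. This difference, the 1 lower of the list, is taken against background, and its size is not exact.

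Il18, a cytokine that epithelial cells store as a precursor and inflammasomes cut to its active form, did not differ detectably. It stood at 10.08, 10.48 and 11.04 (lowest, median and highest) in heme mice and at 9.16, 10.87 and 11.39 in control mice. The heme range lay inside the control range. The difference was -0.08 ± 0.28 (SE, adjusted p = 0.818, limma), with a 95% interval of -0.67 to 0.50. With the mean of the distal colon Hox genes as a covariate it was -0.40 and passed (adjusted p = 0.0177, limma). Without control mouse 4, by far the lowest in that mean, it was -0.38 and did not pass (adjusted p = 0.102, limma). With smooth muscle markers as a covariate it was 0.44 (adjusted p = 0.396). The genes most like Il18 within groups were the sialyltransferase St3gal6 (r = 0.976 over 15 arrays), the N-glycan branching enzyme Mgat4a (0.971) and Clic6, of the chloride intracellular channel family (0.968). Control mouse 4, low in Hox transcripts, was the lowest mouse for Il18.

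All 11 other tested genes of the list of IL-18 and inflammasome genes were called, 8 lower and 3 higher, with a median of -0.27. Over all tested genes 53.6% were called, 26.4% lower and 27.2% higher. Gsdmc2, of the pore-forming gasdermin family, fell by 1.61 ± 0.22 (SE, adjusted p = 2.25e-05, limma). Gsdmd, the gasdermin that inflammatory caspases cut, fell by 0.82 ± 0.09 (adjusted p = 3.6e-06), and Casp4, a caspase that senses intracellular lipopolysaccharide, fell by 0.84 ± 0.11 (adjusted p = 1.88e-05). For these 3 genes all 9 heme mice lay below all controls. Smaller falls were found for Naip5 (-0.54 ± 0.06), a flagellin sensor, and Casp1 (-0.26 ± 0.07), which cuts Il18. The 3 that rose were Aim2, a DNA sensor (0.79 ± 0.32), Casp8 (0.47 ± 0.07) and the adaptor Pycard (0.16 ± 0.05). Aim2 was just past the threshold (adjusted p = 0.0486). The Naip genes are close relatives, so their probe sets can share signal.

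Il33, a nuclear alarmin of barrier cells, was under the floor in every mouse, at 2.08 to 2.69 in heme mice and 2.20 to 3.16 in control mice. Lcn2 was under it at 2.05 to 2.58 in heme mice and 2.18 to 2.42 in control mice. Nos2 was under it at 1.69 to 1.92 in heme mice and 1.61 to 1.88 in control mice. The ranges overlapped for all 3, and no fold is given because both groups are at background. Each had 1 probe set, so a transcript that this probe set misses would not be seen. Without a signal filter, limma over all 18194 genes gave adjusted p = 0.401 for Il33, 0.305 for Lcn2 and 0.731 for Nos2.

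Among genes tied to these cytokines and enzymes, 4 listed genes of lipocalin 2 biology (Slc22a17, Lrp2, Mmp9 and Bdh2) were under the floor on all arrays. Around Il33, 4 genes were tested, of which the shared receptor chain Il1rap (-0.43 ± 0.11, SE, adjusted p = 0.00328, limma) and Il13ra1 (-0.40 ± 0.11) fell and the TSLP receptor Crlf2 rose (0.40 ± 0.08). Over all tested genes 27.2% were higher and 26.4% lower. Around Nos2, 12 genes of nitric oxide synthesis and arginine use were tested, of which 4 were higher and 1 lower, with a median of 0.15, beside the same 27.2% and 26.4% over all tested genes. Gch1, the first enzyme of the synthesis of the cofactor tetrahydrobiopterin, rose by 1.52 ± 0.11 (adjusted p = 5.98e-08), with all 9 heme mice above all controls. Its level was 9.68 ± 0.25 in heme mice (SD, n = 9) and 8.16 ± 0.17 in control mice (n = 6). Ddah1, which breaks down an inhibitor of nitric oxide synthases, rose by 0.50 ± 0.14 (SE), and Nostrin by 0.38 ± 0.10. The synthases Nos1 and Nos3 were under the floor on all arrays, as was Arg1.

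The cytokines that switch on Saa and Reg3 genes in mouse gut were not seen in either group. All 11 of those listed that have a probe set with 1 symbol, among them Il1b, Il6, Il17a, Tnf and Ifng, were under the floor on all 15 arrays. No listed cytokine was therefore tested, and Il22 was not analysed here. Their receptors and adaptors were measured, and of 24 tested 3 were higher and 8 lower, with a median of -0.12, where 27.2% of all tested genes were higher and 26.4% lower. The interleukin 22 receptor chain Il22ra1 fell by 0.44 ± 0.11 (SE, adjusted p = 0.00273, limma) and its partner Il10rb fell by 0.23 ± 0.06 (adjusted p = 0.00266), each with 8 of 9 heme mice below all controls. Tlr2, a receptor for bacterial lipoproteins, fell by 0.85 ± 0.25 (adjusted p = 0.0103), and Nod1, a peptidoglycan sensor, fell by 0.49 ± 0.12 (adjusted p = 0.00219). The tumour necrosis factor receptors Tnfrsf1b (0.52 ± 0.15) and Tnfrsf1a (0.41 ± 0.10) rose, as did Myd88 (0.20 ± 0.08, adjusted p = 0.0433). Nod1 averaged 4.29 in heme mice, just under the floor, and 4.78 in control mice.

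Of 18 tested transcription factors and feedback genes of NF-kB, STAT3 and C/EBP 4 were higher and 7 lower, with a median of -0.21. The share called was near the 53.6% of all tested genes. The feedback inhibitor of STAT3 signalling Socs3 rose by 1.39 ± 0.17 (SE, adjusted p = 8.56e-06, limma), to 7.92 ± 0.41 in heme mice (SD, n = 9) against 6.53 ± 0.21 in control mice (n = 6). Cebpb, a C/EBP factor known to act on Saa promoters, rose by 0.60 ± 0.09 (adjusted p = 8.5e-05). For both all 9 heme mice were above all controls. The NF-kB subunit Relb fell by 0.98 ± 0.09 (adjusted p = 3.34e-07), again without overlap. The NF-kB feedback inhibitor Tnfaip3 fell by 0.91 ± 0.15 (adjusted p = 1.12e-04). Stat3 (-0.16 ± 0.11), Rela (-0.23 ± 0.10) and the inhibitor Nfkbia (0.00 ± 0.08) were not called.

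Of 12 tested epithelial antimicrobial genes other than the members 2 were higher, 4 lower and 6 not called, with a median of -0.14, beside 27.2% higher and 26.4% lower of all tested genes. Slpi, an inhibitor of leukocyte proteases, rose by 6.33 ± 0.36 (SE, adjusted p = 6.19e-09, limma) and the goblet cell protein Retnlb by 0.89 ± 0.34 (adjusted p = 0.0381), although 0 heme mice were above all controls for Retnlb. Ang4, an antimicrobial ribonuclease of mouse gut, fell by 2.29 ± 0.50 (adjusted p = 0.00119), with 8.92 ± 0.84 in heme mice (SD, n = 9) and 11.21 ± 1.29 in control mice (n = 6) and all 9 heme mice below all controls. The bacteria-repelling protein Lypd8 fell by 0.17 ± 0.04, also without overlap. Reg4, a further Reg lectin, was not called (-0.12 ± 0.33, adjusted p = 0.776), and of the genes between Reg3b and Reg3g, Reg3d, Reg3a and Reg2 were under the floor on all arrays and Reg1 on all but 1.

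Of the receptors known to bind serum amyloid A, Scarb1, which also takes up cholesterol from lipoproteins, rose by 1.90 ± 0.14 (SE, adjusted p = 9.41e-08, limma), with all 9 heme mice above all controls. Lrp1 fell by 0.36 ± 0.08 (adjusted p = 0.0013), Cd36 was not called (0.69 ± 0.40, adjusted p = 0.159), and the formyl peptide receptor Fpr2 was under the floor on all arrays.

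**Figure D4:**
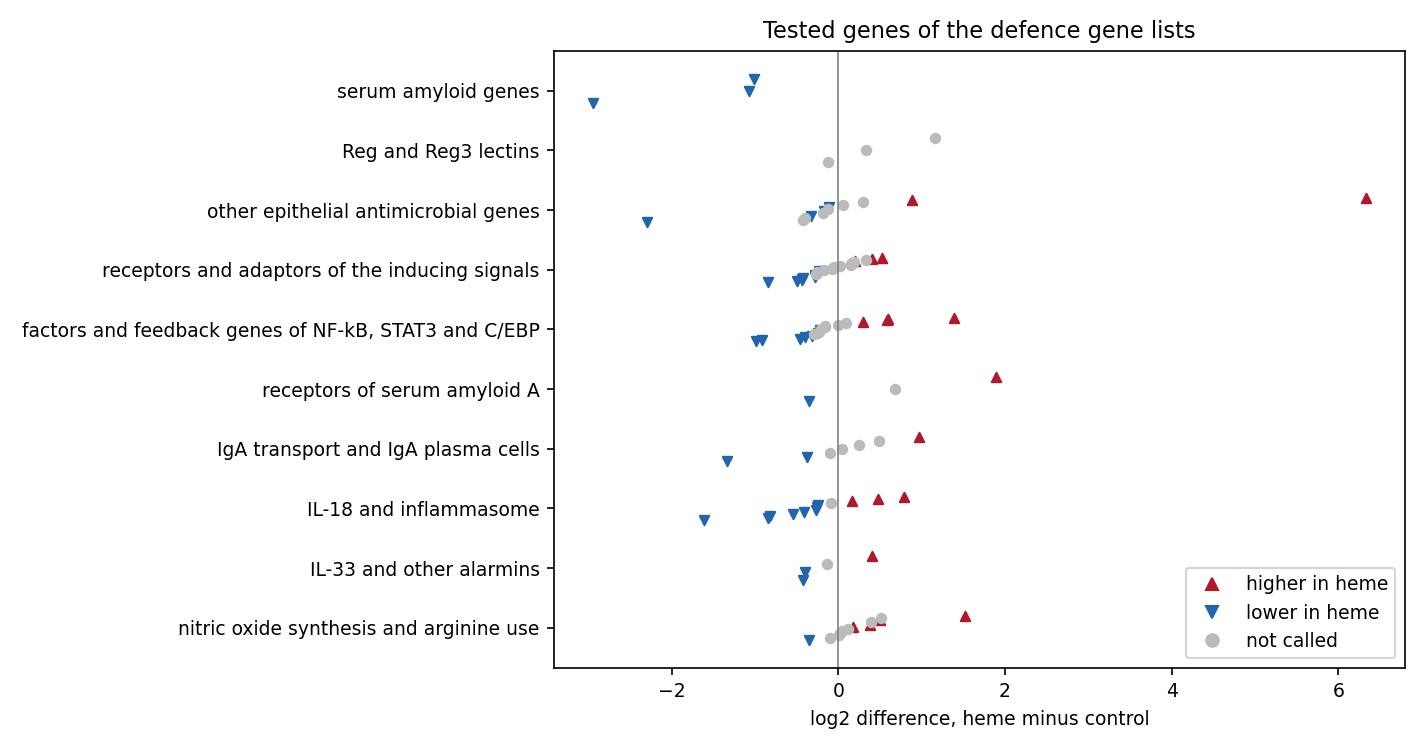
Log2 difference, heme minus control (horizontal axis), of each tested gene in 10 lists around the serum amyloid and defence genes, with red triangles for genes higher in heme, blue triangles for genes lower and grey circles for genes not called at an adjusted p under 0.05. The 3 serum amyloid genes lie to the left at -2.94, -1.07 and -1.02, none of the 3 Reg genes is called, and most lists hold genes on both sides, with Slpi at 6.33 far to the right.

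Markers of the cells a scraping can hold were read beside these results. The counts below stand beside 27.2% higher and 26.4% lower over all tested genes. All 13 epithelial markers were over the floor, and their mean was 12.72 to 12.86 in heme mice and 12.73 to 12.84 in control mice, with 3 higher and 3 lower. All 10 neutrophil markers with a probe set were under the floor on all arrays, S100a8, S100a9 and Mpo among them. Of 11 macrophage and dendritic cell markers 5 were under the floor on all arrays, and 0 of the 3 tested (C1qa, C1qb and Mrc1) were called. Of 9 liver genes 7, albumin included, were under the floor on all arrays, and Ttr, which endocrine cells also make, was the 1 tested and was not called. Of 12 T and natural killer cell markers 9 were under the floor on all arrays, Cd3e, Cd4 and Cd8a among them, and the 2 tested fell, Gzma by a log2 difference of -3.59 ± 0.24 (SE, adjusted p = 2.43e-08, limma) and Klrd1 by one of -1.49 ± 0.19. Their heme means, 3.80 and 3.59, are under the floor, so both differences are taken against background and their sizes are not exact. Of 10 tested interferon response genes 5 were lower. All 5 tested smooth muscle markers were lower, and their mean was 4.51 to 6.36 in heme mice and 5.86 to 9.45 in control mice. In heme mice Actg2 (4.14) and Myl9 (4.25) averaged under the floor, so this smooth muscle mean is partly background there. The mean of 3 fat cell markers was 5.82 to 8.81 in heme mice and 5.47 to 8.07 in control mice. Control mouse 4, the mouse with the highest Saa3, was the highest control in it, and 1 of the 3, the lipid droplet gene Cidec, was higher in heme mice (2.86 ± 0.28, SE, adjusted p = 1.14e-06, limma). The other 2, Adipoq (-0.36 ± 0.85) and Fabp4 (-0.17 ± 0.52), were not called, and 3 further fat cell markers were under the floor on all arrays. Of 10 markers of mast cells and eosinophils 6 were under the floor on all arrays. Kit, the 1 tested, was lower (-1.28 ± 0.18, adjusted p = 2.94e-05, limma), and whether it reads these cells here was not tested. The part of lymphocyte, fat cell, mast cell and interferon response transcripts in the falls of the serum amyloid genes and Pigr was not tested. With the smooth muscle mean as a covariate the differences were -3.38 for Saa3, -0.95 for Saa1, -0.95 for Saa2 and -0.25 for Pigr, and all 4 still passed, with adjusted p up to 0.0108 (limma). The smooth muscle mean itself differed between the diets, so this fit cannot tell tissue mix and diet apart.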

How the data were processed

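Colon scrapings of 9 heme and 6 control mice were measured on 15 arrays. The authors deposited log2 values for every probe set, made with GCRMA 2.22.0 per the submitters' processing notes. Sources used here give no further steps. Of 45101 probe sets 34958 have 1 symbol in the array annotation. A gene was its probe set with the highest mean, and a gene entered the test if 6 or more arrays exceeded a signal of 20. The diets were compared in limma 3.58.1 under R 4.3.3 (lmFit, then eBayes, Benjamini-Hochberg), once over genes and once over probe sets, after tests on simulated data. Pairs of relatives were compared by exact permutation. Promoter windows were aligned with Biopython 1.88 (global, match 1). Array medians were 3.11 to 3.24, and the number of arrays limits the precision. Correlations between arrays over tested genes were 0.944 to 0.994, with 0 identical pairs. The members, lists, motifs and alternatives were chosen with earlier results of these data known. Named were all members, up to 3 called genes with the largest change per list (with a few others from the lists chosen after their values were seen) and the 3 genes most like each tested member. The listed antimicrobial, cytokine and marker genes without a probe set of 1 symbol were not analysed here. Mice that share a replicate number in the labels (6 numbers) were not paired: their deviations from group means correlated from -0.19 to 0.20.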

Additional observations from a re-analysis of the deposited data

How the results depend on the processing

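The falls of Saa1, Saa2, Saa3 and Pigr kept their direction and call in all 13 other settings and all 15 fits without 1 mouse. Over the fits without 1 mouse they ran from -1.08 to -0.93, -1.16 to -1.01, -3.08 to -2.71 and -0.40 to -0.35. Over the other settings they ran from -1.11 to -0.94, -1.18 to -0.95, -3.38 to -2.60 and -0.43 to -0.25. Members called higher were 1, not 0, when control mice 2 and 4 were left out (Reg3g 2.00, adjusted p = 0.0245, limma) and when heme mouse 6 was left out as well (2.20, adjusted p = 0.0132). Both settings leave out controls high in Reg3g, which raises its difference by construction. The Il18 difference ran from -0.38 to 0.067 without 1 mouse, turning positive without control mouse 2 (0.060) or 3 (0.067), was 0.44 with the smooth muscle covariate and -0.40 and called with the distal Hox covariate. Saa2 minus Saa1 passed at -0.14 with probe sets averaged. The causes were not tested. With the replicate block the differences were -1.02, -1.08, -3.07 and -0.38 for Saa1, Saa2, Saa3 and Pigr and 0.075 and 0.84 for Reg3b and Reg3g, and no member's call changed. 3964 genes were called there, against 4961, and 3 of 12 mice correlated best with their own number. In the unequal-change tests, no block was run. The number of genes called ran from 3510 to 5663. Genes under the floor have no measurable change at this signal over background.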
